A study of Mus musculus with 14 samples.

Results

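The translation initiation and elongation factors of mouse embryonic stem cells held in the paused state were described at 3 levels: total RNA, the share of each RNA that carried label, and the loss of that label after a pulse. Members are genes whose symbol starts with Eif or Eef and a digit. The Y-linked Eif2s3y, the 4E-binding proteins, the eIF2 kinases and processed copies marked -ps were left out. Of 87 matching rows, 72 remained after these exclusions, and 61 had at least 10 total counts in at least 6 libraries, among 14641 such genes of 36335 with a symbol. Of the 61, 58 also reached 10 conversion counts in 3 or more libraries; Eef1a2, Eef1akmt3 and Eif3j2 did not and have no value for loss. The 11 rows that did not reach the count threshold were Eif1ad19, Eif1ad2, Eif1ad3, Eif1ad6, Eif1ad7, Eif1ad8, Eif1ad9, Eif2c5, Eif4a3l1, Eif4a3l2 and Eif4e1b. Just inside it were Eif3j2 with 6 libraries and Eif1ad15 with 7, and just outside it were Eif1ad8 and Eif4a3l1 with 5 each.

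Every library came from E14 cells, a mouse embryonic stem cell line, on gelatin in serum and LIF, paused by 2 weeks in 200 nM INK128, which inhibits mTOR. The WT and Mettl3-KO groups therefore share the inhibitor, and no unpaused group is present; Mettl3 is the catalytic subunit of the enzyme that writes m6A on mRNA. Cells took up 100 µM S4U, a thiolated uridine, for 12 h and were collected 0, 1, 3 or 8 h after its removal, and the libraries read the 3′ ends of polyadenylated RNA. There are 6 WT libraries (1 each at 0 and 3 h, 2 each at 1 and 8 h) and 8 of Mettl3-KO (2 per time). Titles and cell line entries say E14 throughout, but the source entries of Mettl3-KO 8 h replicates 1 and 2 read E15 and E16. Nothing in the labels says that replicates came from separate cultures or that the knockout is more than 1 clone, so p-values measure the spread between these libraries, which may be technical.

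Translation of most mRNAs begins when eIF4E binds the 5′ cap, eIF4G and the helicase eIF4A join it, and eIF3 and the ternary complex of eIF2, GTP and initiator tRNA load the small ribosomal subunit. eIF1 and eIF1A hold the scanning subunit until a start codon is found, eIF5 and eIF5B complete subunit joining, and eIF2B recharges eIF2 with GTP. eEF1A, recharged by the eEF1B complex, then brings in each aminoacyl tRNA, eEF2 moves the ribosome along the codons, and eIF5A eases the joining of difficult amino acids. mTOR controls this machinery through the 4E-binding proteins and, most of all, through mRNAs that begin with a C followed by a run of pyrimidines, the 5′ terminal oligopyrimidine or TOP mRNAs, to which many elongation factors and some eIF3 subunits belong.

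A list of 10 members described as TOP mRNAs was kept apart, since mTOR is known to control their translation. RefSeq start windows on GRCm38.p6 were at hand for 6 of the 10, and those of the 5 with loss values whose label is described below are shown from 10 bases before to 20 bases from the annotated start, read on the coding strand, with any C followed by at least 4 pyrimidines in capitals.
Eef1a1 (chr9:78481705-78481734, minus strand): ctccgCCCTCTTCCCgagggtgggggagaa
Eef2 (chr10:81176621-81176650, plus strand): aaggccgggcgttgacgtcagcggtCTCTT
Eef1b2 (chr1:63176821-63176850, plus strand): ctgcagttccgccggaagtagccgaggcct
Eif3f (chr7:108934405-108934434, plus strand): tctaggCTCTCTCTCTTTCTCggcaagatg
Eif4b (chr15:102073763-102073792, plus strand): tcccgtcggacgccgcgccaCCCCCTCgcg
The tract spans the annotated start in Eef1a1 and Eif3f, lies downstream of it in Eef2 and Eif4b, and is not among these letters in Eef1b2. Such a tract, searched on the coding strand, was in 4 of the 6 TOP windows, in any window of 17 of 47 members (36.2%) and of 39.6% of all 27025 genes with one. It was in 35.8% of all 32851 windows, against 40.7% on the other strand, so it is common in any start window. The 3′ end libraries do not show where these RNAs began. Eef1d, Eef1g, Eif3e and Eif3h are named only.

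The libraries were deep except for 2. Total counts ran from 6108100 to 26654200 in 12 libraries, while WT 1 h replicate 2 held 49154 and Mettl3-KO 3 h replicate 2 held 602297. Conversions made up 8.43% and 6.90% of the counts of those 2 libraries, against 30.8% and 18.5% in the other library of the same group. All values below are from the 12 deep libraries (5 WT, 7 Mettl3-KO) unless stated. Values or calls from all 14 are given for many of them but not for all. Mettl3 itself had 46.8 CPM ± 21.4 (SD, n = 5; lowest 24.1) in WT and 1.73 ± 0.452 (SD, n = 7; highest 2.48) in Mettl3-KO, where CPM is the count over the TMM-scaled library total, times 1000000. The lines also differed in a subunit of eIF2: Eif2s3y, the Y-linked copy of its gamma subunit that the rule leaves out, had between 0.141 and 1.03 CPM in WT and between 41.9 and 71.7 in Mettl3-KO. Uty, another Y-linked gene, had at most 0.165 CPM in WT and from 4.87 to 26.1 in Mettl3-KO. The 2 lines thus differed in Y-linked RNA as well as in Mettl3, and for every Mettl3-KO value below the parts of these differences cannot be told apart. All 6 embryonic stem cell markers were measured, with a summed level of 2542 to 3223 CPM in WT and 1759 to 2709 in Mettl3-KO. Sox2 was the largest part of that sum. Esrrb (615 to 787 against 229 to 614) and Dppa5a were lower in Mettl3-KO without overlap, and the others overlapped. The 4 neural markers summed to 75.2 to 99.4 CPM in WT and 467 to 752 in Mettl3-KO, through Stmn2 (12.1 to 21.0 against 341 to 583) and Tubb3, while Sox1 was lower in Mettl3-KO. Primitive endoderm markers (4 of 4 measured) summed to 14.2 to 24.7 against 4.55 to 16.7 CPM. Of these, Gata4 (2.42 to 9.52 against 0.132 to 0.853) and Gata6 (3.17 to 9.82 against 0.471 to 1.15) were lower in Mettl3-KO without overlap. Dab2 (5.06 to 11.9 against 2.73 to 14.3) and Sox17 overlapped. Fibroblast markers (2 of 4) summed to 8.57 to 16.9 against 3.18 to 7.73, with Postn at 0 in all 12 libraries. Col1a1 was lower without overlap, and Thy1 overlapped. These markers move with genotype, as do all results below, and their part in them was not tested; in bulk RNA, fewer cells of a type and less RNA per cell cannot be told apart.

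Total RNA of the factors differed between genotypes about as often as that of other genes, and in both directions. Of 61 members, 17 were higher in Mettl3-KO (27.9%, against 21.8% of all 14641 genes) and 7 were lower (11.5%, against 19.2%), with edgeR at an adjusted p under 0.05. The median log2 change was 0.07 over members and 0.03 over all genes, and 14 members had groups that did not overlap (23.0%, against 23.2% of all genes). By role, 3 of 7 start codon factors were higher and none lower. Of 10 in the group of eIF2 and eIF2B, which also holds Eif2a and Eif2d, 5 were higher and 3 lower. In the eIF4 group 3 of 12 were higher and 1 lower. Of the 7 enzymes acting on elongation factors 2 were higher and 1 lower, and both other matches of the pattern were higher. Of those matches, Eif1ad15 reached the count threshold through Mettl3-KO libraries alone, and it is among the 17 higher members. In eIF3, 1 of 14 was higher and 2 lower, and 1 of 9 in the elongation group was higher. None of the 10 TOP members passed in either direction (median log2 change -0.11). With all 14 libraries, 6 members were higher (12.1% of all genes) and 5 lower (9.99%).

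**Figure D1:**
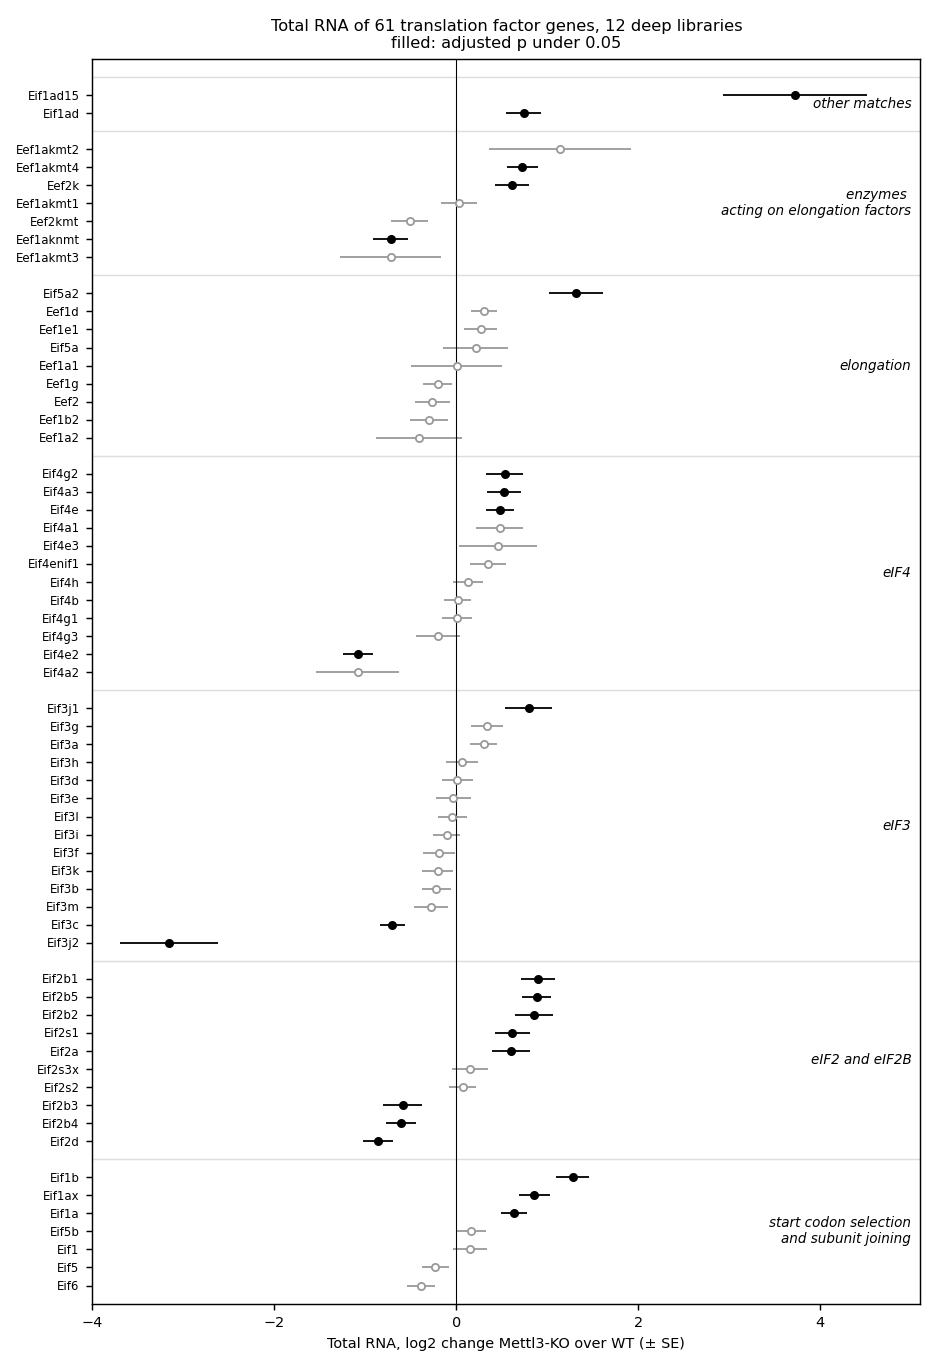
Log2 change of total RNA in Mettl3-KO over WT with its standard error for the 61 members, grouped by role, from 5 WT and 7 Mettl3-KO libraries; filled points have an edgeR adjusted p under 0.05. Most eIF3 and elongation factor points lie near 0, while eIF2B subunits fall on both sides and Eif1b, Eif1ax and Eif1a lie above 0.

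Among the factors that hold the scanning subunit, Eif1b, Eif1ax and Eif1a were all higher in Mettl3-KO. Eif1b (chromosome 9, 120492606 to 120495327), a second gene for eIF1, had 63.4, 49.8, 55.1, 46.6 and 62.4 CPM in the WT libraries and from 94.03 to 184 CPM, with a median of 142, in Mettl3-KO. The groups did not overlap, and Eif1b was 2.43-fold higher in Mettl3-KO (log2 1.28, SE 0.18). Eif1ax, the X-linked gene for eIF1A, had 142, 134, 114, 108 and 114 CPM in WT and from 169 to 287 (median 229) in Mettl3-KO, a log2 change of 0.86 (SE 0.17). Eif1a, its copy on an autosome, had 369, 339.6, 279, 275 and 305 CPM against 433 to 541 (median 491), a log2 change of 0.63 (SE 0.14). Both genes were again without overlap between the groups, and reads shared between the copies could not be separated here. Their partners did not pass: the log2 changes of Eif1, Eif5, Eif5b and Eif6 were 0.15, -0.23, 0.16 and -0.39, with edgeR adjusted p of 0.561, 0.232, 0.465 and 0.0508. In the fit of all 14, Eif1b (1.18) and Eif1ax (0.73) were still called, and Eif1a was not (0.43).

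The 5 subunits of eIF2B, the exchange factor that recharges eIF2, moved apart: Eif2b1, Eif2b2 and Eif2b5 were higher in Mettl3-KO and Eif2b3 and Eif2b4 lower. Eif2b1, the alpha subunit, had 89.6, 74.8, 62.0, 75.4 and 43.9 CPM in WT and from 97.5 to 153 (median 133) in Mettl3-KO, a log2 change of 0.90 (SE 0.19). Eif2b5, the catalytic epsilon subunit (chromosome 16, 20498795 to 20509325), had 118, 118, 101, 163 and 143 CPM against 178 to 305 (median 246), a log2 change of 0.88 (SE 0.16). For both, every Mettl3-KO library lay above every WT library. Eif2b2, the beta subunit, also rose by 0.86 (SE 0.21), but its groups overlapped, from 63.0 to 127 CPM in WT and from 105 to 258 in Mettl3-KO; it lies outside the naming rule and is given with its complex. Eif2b4, the delta subunit, had 46.4, 42.8, 39.4, 70.9 and 52.8 CPM in WT and from 26.3 to 36.4 (median 33.2) in Mettl3-KO, a log2 change of -0.61 (SE 0.17). Eif2b3, the gamma subunit, had 50.02, 51.5, 51.5, 68.5 and 53.5 CPM against 16.2 to 45.0 (median 43.5), and fell by 0.59 (SE 0.22). Neither pair of groups overlapped, although the call of Eif2b3 was lost when any of several single libraries was left out, for example WT 1 h replicate 1 (edgeR adjusted p = 0.144). When all 14 were fitted, Eif2b5 and Eif2b2 were called, while Eif2b1 (0.70, edgeR adjusted p = 0.0859), Eif2b3 (-0.50) and Eif2b4 (-0.39) were not.

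**Figure D2:**
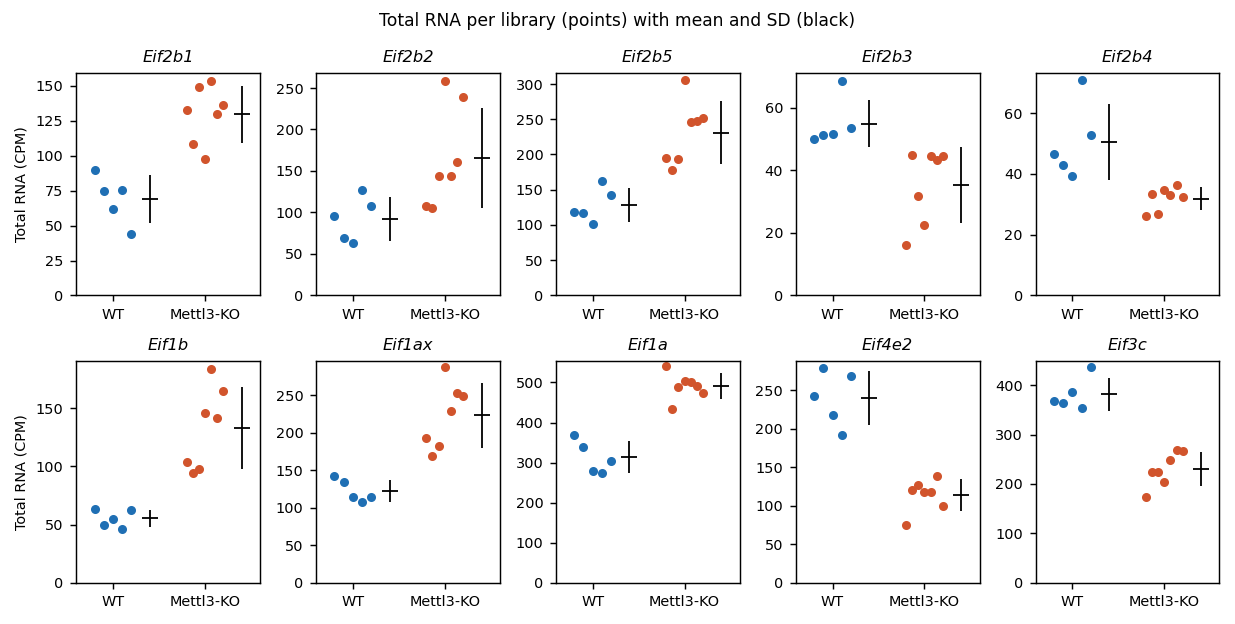
Total RNA in CPM in each deep library for the 5 eIF2B subunits, 3 start codon factors, Eif4e2 and Eif3c; points are libraries (5 WT, 7 Mettl3-KO) and black marks are the mean and SD. Eif2b1, Eif2b5, Eif1b, Eif1ax and Eif1a lie higher in every Mettl3-KO library, and Eif2b3, Eif2b4, Eif4e2 and Eif3c lower.

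Of the eIF2 subunits among the members, only Eif2s1 passed. Eif2s1, the alpha subunit whose phosphorylation blocks eIF2B, had 225, 151, 179, 216 and 132 CPM in WT and from 178 to 374 (median 266) in Mettl3-KO, a log2 change of 0.62 (SE 0.19) with overlapping groups. Without WT 3 h replicate 1 it was 0.56 (edgeR adjusted p = 0.0716), and with all 14 libraries 0.48 (edgeR adjusted p = 0.239). The beta subunit Eif2s2 had a log2 change of 0.07 and the X-linked gamma subunit Eif2s3x 0.15, and neither passed. Eif2s3y, the Y-linked gamma copy that the rule leaves out, was higher in Mettl3-KO (41.9 to 71.7 CPM, against at most 1.03 in WT). Eif2d, which can deliver initiator tRNA apart from eIF2, was lower in Mettl3-KO, with 93.9, 61.3, 67.3, 131 and 86.7 CPM in WT and from 39.6 to 53.6 (median 47.7) in Mettl3-KO. The groups did not overlap, and the log2 change was -0.86 (SE 0.17), or -0.80 with all 14 libraries, where it was still called.

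Most of eIF3, the scaffold between the ribosome and eIF4G, passed in neither direction; Eif3c was the clearest exception. Eif3c, a core subunit, had 367, 364, 386, 354 and 437 CPM in WT and from 174 to 269.6 (median 223) in Mettl3-KO, without overlap. Its log2 change was -0.70 (SE 0.14), and -0.83 with all 14 libraries. Eif3j2 (-3.16, at most 3.65 CPM in any library) and Eif3j1 (0.79) were called in opposite directions, but the copies are nearly identical and how the authors' counting split their reads is not given in the sources used here. With all 14 libraries Eif3j2 was still called and Eif3j1 was not (0.67, edgeR adjusted p = 0.255). The other 11 subunits lay between -0.28 (Eif3m) and 0.34 (Eif3g).

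In the eIF4 group, Eif4e2 moved against Eif4e. Eif4e2, the homologue 4EHP that binds caps without recruiting eIF4G, had 242, 278, 218, 192 and 268 CPM in WT and from 74.7 to 139 (median 117) in Mettl3-KO, and the groups did not overlap. It fell by 1.08 on the log2 scale (SE 0.16; by 1.05 with all 14 libraries). Eif4e had 109.6, 85.2, 79.5, 87.4 and 70.1 CPM against 104 to 138 (median 124), a log2 change of 0.48 (SE 0.16) with overlapping groups; the call was lost without WT 3 h replicate 1 (edgeR adjusted p = 0.0856) and with all 14 libraries (0.35). Eif4g1, the main scaffold, had 389, 519, 432, 561 and 541 CPM against 411 to 616 (median 467) and a log2 change of 0.00 (SE 0.17). Eif4b, a cofactor of the helicase, had a log2 change of 0.01 (SE 0.15).
The helicases were uneven between libraries. Eif4a2 had 382, 193, 289, 1152 and 383 CPM in WT, the highest in WT 8 h replicate 1, and from 122 to 409 (median 173) in Mettl3-KO. Its log2 change of -1.09 (SE 0.45) did not pass (edgeR adjusted p = 0.0823); without WT 8 h replicate 1 it was -0.64 and passed (edgeR adjusted p = 0.0275), and with all 14 libraries it was -0.48. Eif4a1 had 639, 402, 281, 636 and 180.01 CPM in WT, lowest in WT 8 h replicate 2, and from 409 to 678 (median 599) in Mettl3-KO, a log2 change of 0.48 (SE 0.25, edgeR adjusted p = 0.149). It passed without WT 8 h replicate 1 (0.70, edgeR adjusted p = 0.0416).

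Among the 9 members grouped under elongation, only Eif5a2 passed in total RNA. Eef2 had 3373, 2908, 2015, 3984 and 3092 CPM in WT and from 1631 to 3169 (median 2497) in Mettl3-KO, a log2 change of -0.26 (SE 0.19). Eef1a1 had 3640, 1887, 2466, 3432 and 438 CPM in WT and from 612 to 3167 (median 2606) in Mettl3-KO. The lows were single libraries, replicate 2 of WT at 8 h and replicate 2 of Mettl3-KO at 1 h, and the log2 change of 0.00 carried an SE of 0.50. Eif5a2, the second gene for eIF5A, had 4.57, 5.21, 2.33, 3.65 and 2.23 CPM in WT and from 5.28 to 11.3 (median 9.85) in Mettl3-KO. These groups did not overlap, and the log2 change was 1.32 (SE 0.30; 1.33 with all 14 libraries). Of 7 enzymes that act on elongation factors, the eEF2 kinase Eef2k (0.61) and the eEF1A lysine methyltransferase Eef1akmt4 (0.73) were higher. Eef1aknmt, which methylates the N-terminus and a lysine of eEF1A, was lower (-0.72). With all 14 libraries Eef1aknmt was still called (-0.74), while Eef2k (0.76, edgeR adjusted p = 0.0557) and Eef1akmt4 (0.64, edgeR adjusted p = 0.0953) were not. Eif1ad15, at most 3.84 CPM in any library, was higher by 3.72 (SE 0.79), and Eif1ad, an eIF1A-like protein, by 0.74. Eif1ad15 held at most 8 counts in any WT library, so it became a member only through the group where it was high. With all 14 libraries Eif1ad was not called (0.58, edgeR adjusted p = 0.148).

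Over the 8 h of chase, the total RNA of 1 member moved differently in the 2 genotypes. Eif5a (chromosome 11, 69916712 to 69921958), which with its homologue is the known carrier of the amino acid hypusine, had 801 CPM at 0 h, 1235 at 1 h, 1015 at 3 h, and 517 and 458 at 8 h in WT. In Mettl3-KO it had 507 and 773 at 0 h, 814 and 577 at 1 h, 863 at 3 h, and 1407 and 1722 at 8 h. It thus fell late in WT and was highest at 8 h in Mettl3-KO, and the slopes differed by 0.31 log2 per hour (SE 0.05, edgeR adjusted p = 0.0160). Among all genes, 0.239% had such a higher slope and 0.301% a lower one; no member was called lower (5 at an unadjusted p under 0.05 with edgeR, and 1 called by DESeq2). The call rests on few libraries: without WT 1 h replicate 1, WT 8 h replicate 2, Mettl3-KO 8 h replicate 1 or Mettl3-KO 8 h replicate 2 the edgeR adjusted p was 0.0650, 0.0818, 0.0634 and 0.164, with differences of 0.29, 0.29, 0.32 and 0.29. With all 14 libraries the difference was 0.27 (edgeR adjusted p = 0.873).

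The labelled share, conversions over total counts of the same gene in the same library, was lower in Mettl3-KO early in the chase. Pooled over members it was 34.7% in WT and 26.3% and 24.3% in Mettl3-KO at 0 h, and 27.5% against 24.2% and 25.6% at 1 h. At 3 h it was 23.2% against 19.7%, and at 8 h 9.15% and 6.84% against 6.65% and 6.78%. Pooling weights the members by their counts. Taken gene by gene, the median member share at 8 h was 3.16% in WT and 3.80% in Mettl3-KO, so higher in Mettl3-KO. The median over all tested genes was 2.06% and 2.44%. The share of the whole library was 39.4% against 26.1% and 26.6% at 0 h, likewise lower in Mettl3-KO, but 4.52% and 3.72% against 4.90% and 4.97% at 8 h, where both Mettl3-KO libraries lay above WT. By the fit over all times, 57 of 58 members lay below 0 at 0 h (median log2 -0.47; all genes -0.45, 87.3% below 0). None passed in that fit with edgeR, where 0.126% of all genes were called lower and none higher; 13 members had an unadjusted p under 0.05, all lower. Adding the 2 shallow libraries also left none called, with 0.0079% of all genes lower. A fit to the 0 h and 1 h libraries alone called 32 of 58 members lower (55.2%, against 20.9% of all genes) and none higher (0.166% of all genes), with a median of -0.39 both for members and for all genes. In that fit Eif2b1 (-0.74, SE 0.14) and Eef1d (-0.59, SE 0.13) had the smallest p. WT has 1 deep library at each of these times, so both fits take the lone library to vary like the others.

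Label was lost from nearly all members in both genotypes, and the median rates by role ranged widely. Loss was fitted as labelled RNA per unit of total RNA, and a half-life is the time for 50% of it to go by the fitted line, uncorrected for cell growth and division. In WT, 54 of 58 members lost label (against 91.4% of all 12656 genes tested), and in Mettl3-KO 55 did (against 89.2%); with all 14 libraries these were 52 (91.2% of all genes) and 51 (88.2%). Members as a group had a half-life, taken at their median slope, of 2.04 h (WT) and 2.57 h (Mettl3-KO), against 1.78 h and 2.11 h for all genes. The elongation group had 4.59 h and 5.84 h, eIF3 subunits 2.77 h and 3.67 h, and eIF4 2.03 h and 2.29 h. Within the elongation group, single genes ranged from 1.42 h to 11.2 h (WT) and from 1.97 h (Eef1e1) to 12.9 h (Mettl3-KO). The group of eIF2 and eIF2B, with Eif2a and Eif2d, had 1.82 h and 2.42 h. Start codon factors had 1.81 h and 1.96 h, and the enzymes acting on elongation factors 1.53 h and 3.24 h. The 9 TOP members with a value stood at 5.88 h (WT) and 5.60 h (Mettl3-KO), against 1.94 h and 2.38 h for the 49 other members.

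**Figure D3:**
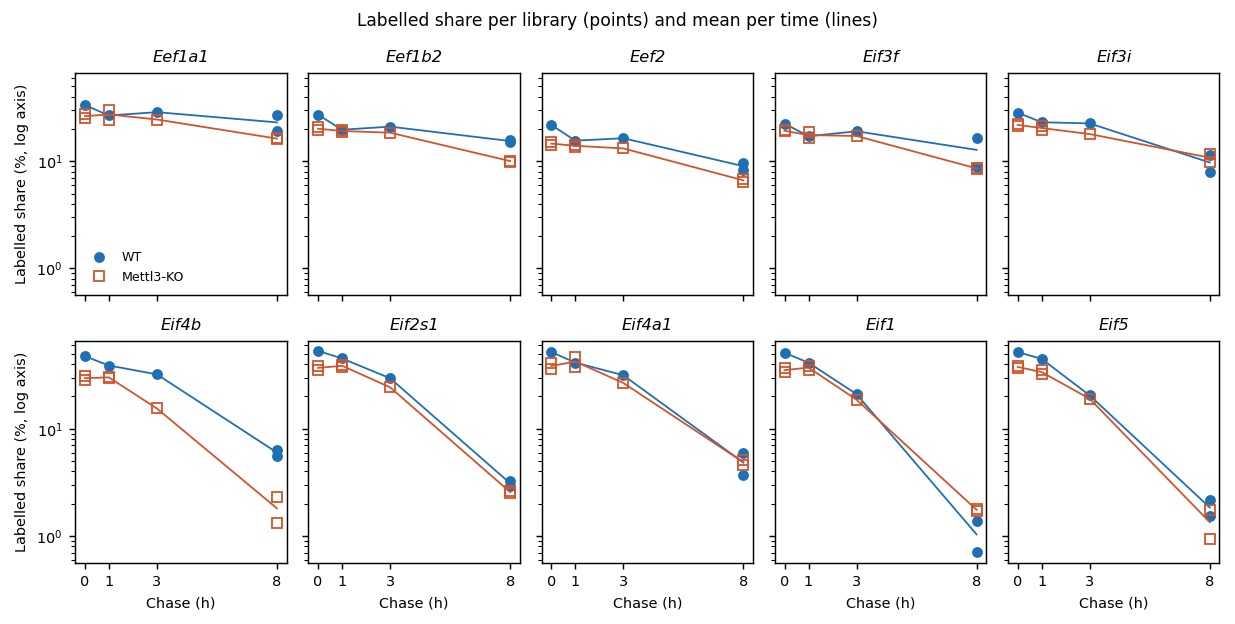
Labelled share in percent (log axis) against hours of chase for 10 members; points are deep libraries and lines join the mean of each time. Eef1a1, Eef1b2, Eef2, Eif3f and Eif3i decline slowly in both genotypes, while Eif1 and Eif5 drop to 2.16% or less by 8 h.

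Among the elongation factors with TOP mRNAs, the share of label kept to the last time point varied from gene to gene. Eef1a1 had a labelled share of 33.4% in WT at 0 h, 26.7% at 1 h, 28.7% at 3 h, and 19.1% and 26.9% at 8 h. In Mettl3-KO it had 27.5% and 25.1%, then 24.4% and 30.3%, then 24.5%, then 16.02% and 16.5%. The 8 h share was thus 69.0% of the 0 h share in WT and 61.9% in Mettl3-KO, where the median of all genes was 4.54% and 7.91%. Its slopes were -0.16 log2 per hour (SE 0.09) in WT and -0.09 (SE 0.08) in Mettl3-KO, and neither passed. Eef1b2, of the eEF1B exchange complex, kept 56.8% and 49.9% of its share, with half-lives of 11.2 h in WT, where the slope did not pass, and 6.10 h in Mettl3-KO. Eef2, the translocase, had shares of 21.8% at 0 h and 9.62% and 8.37% at 8 h in WT, and of 15.0% and 14.2% at 0 h and 6.36% and 6.90% at 8 h in Mettl3-KO, with half-lives of 8.78 h and 6.78 h. Eef1g kept 29.6% and 34.6%, and Eef1d, of the same exchange complex, 18.8% and 27.2% (4.03 h and 5.60 h). The WT share was above that of Mettl3-KO at 0 h in Eef1a1, Eef1b2, Eef2, Eef1g and Eef1d. This was not particular to them, since by the fit 57 of 58 members and 87.3% of all genes were lower in Mettl3-KO at 0 h.
Some eIF3 subunits also kept much of their label. Eif3f, on the TOP list and spanned by a pyrimidine tract at its annotated start, kept 56.8% of its share in WT and 44.5% in Mettl3-KO, although its 8 h shares in WT were far apart, 16.6% and 8.89%. Its WT slope did not pass (20.2 h as a half-life, edgeR adjusted p = 0.376), so that half-life has no firm upper end. Eif3i, which is not on the list, kept 34.3% and 49.5%, with half-lives of 4.99 h and 9.51 h. Eif3h kept 33.0% and 36.5%, while Eif4b, on the list too, kept 12.6% and 6.11%, so TOP members ranged widely. Tpt1 and Rack1, other mRNAs of the TOP type listed among the partners, had half-lives of 12.2 h and 11.0 h (WT) and of 8.68 h and 9.84 h (Mettl3-KO).

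The 7 start codon factors kept between 2.02% (Eif1) and 8.82% (Eif1ax) of their 0 h share in WT, and between 3.56% (Eif5) and 26.4% (Eif1ax) in Mettl3-KO. Eif1, which guards start codon choice, had shares of 51.1% at 0 h, 41.4% at 1 h, 21.0% at 3 h, and 1.37% and 0.702% at 8 h in WT, a half-life of 1.28 h. In Mettl3-KO it had 36.8% and 33.6%, 35.6% and 38.8%, 18.7%, and 1.71% and 1.80%, a half-life of 1.80 h. Eif5, the GTPase-activating protein of eIF2, kept 3.55% and 3.56% of its 0 h share. Of other roles, Eif2s1 kept 5.81% and 6.94% (1.80 h and 2.38 h), and Eif4a1 9.32% and 12.7% (1.98 h and 2.73 h). The shortest half-lives belonged to Eif4e3, a cap-binding homologue (0.871 h in WT, 1.27 h in Mettl3-KO), Eif3j1 (1.07 h in WT) and Eef1akmt2 (1.12 h in WT), and in Mettl3-KO also to Eif1ad15 (1.38 h) and Eef2k (1.76 h). Most of these are thinly counted.

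**Figure D4:**
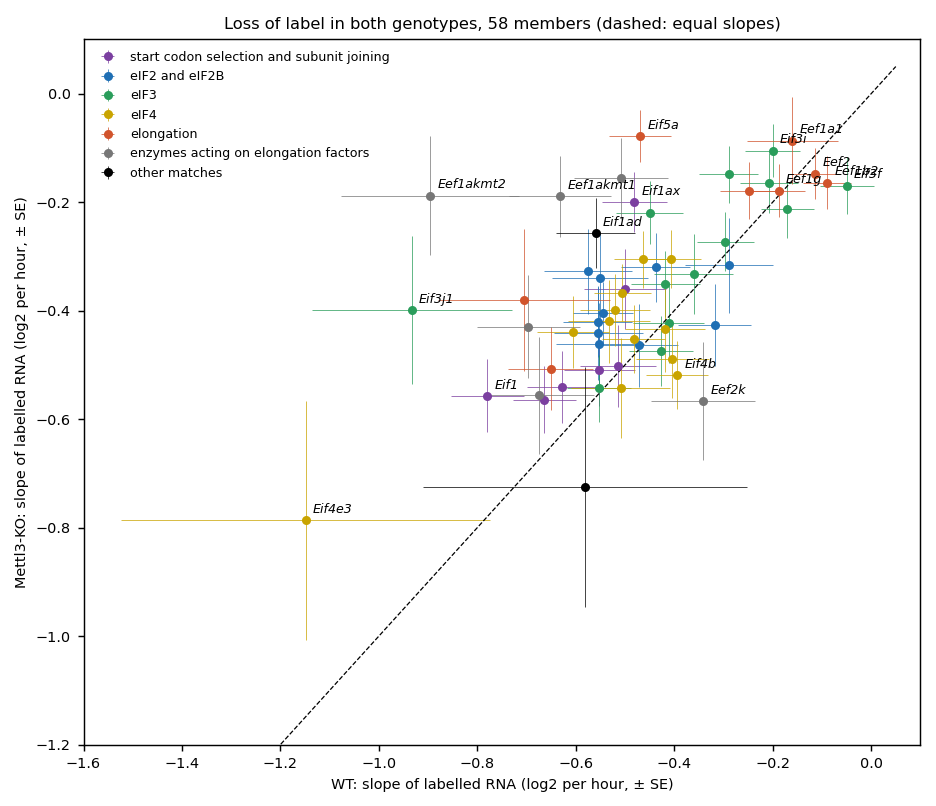
Slope of labelled RNA in log2 per hour with its standard error in WT (x axis) and Mettl3-KO (y axis) for 58 members, coloured by role; the dashed line marks equal slopes. Eef1a1, Eef1b2, Eef2, Eef1g, Eif3f and Eif3i lie at the slow end in both genotypes, and Eif5a, Eif1ax, Eef1akmt1, Eef1akmt2 and Eif1ad lie above the line.

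Between genotypes, 5 members lost label more slowly in Mettl3-KO and none faster. That was 8.62% of the 58 members, against 5.06% of all genes slower and 0.300% faster, with edgeR at an adjusted p under 0.05; 11 members were slower and none faster at an unadjusted p under 0.05. The median difference was 0.10 log2 per hour for members and for all genes, and 44 of 58 members lay above 0 (69.1% of all genes). This shift depends on the scale: with TMM on the conversion counts the median of all genes fell to 0.01, 2 members were slower (Eif5a and Eif1ax; 3.11% of all genes) and 2 faster (Eif4b and Eif3f, -0.21 and -0.20; 1.58% of all genes). The slower share of all calls was 94.4% on total counts and 66.3% on conversion counts. Eif5a and Eif1ax thus passed as slower on library totals, which keep the shift of all genes, and on conversion counts, which remove most of it. On a further scale, the gene's own total counts, Eif5a did not pass (0.08, edgeR adjusted p = 0.306). With all 14 libraries, Eef1akmt1 and Eef1akmt2 were the 2 called (2.16% of all genes slower).

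Eif5a had the smallest p. Its labelled RNA was 316 CPM at 0 h, 379 at 1 h, 294 at 3 h, and 35.9 and 30.8 at 8 h in WT. In Mettl3-KO it was 136 and 204 at 0 h, 212 and 164 at 1 h, 178 at 3 h, and 109 and 127 at 8 h. Fitted half-lives were 2.13 h and 12.9 h, a difference of 0.39 log2 per hour (SE 0.07, edgeR adjusted p = 0.000673); the Mettl3-KO slope itself did not pass. Its labelled share ended close together in the genotypes: it went from 39.5% to 6.94% and 6.73% in WT and from 26.8% and 26.4% to 7.74% and 7.36% in Mettl3-KO. Measured against its own total counts the difference was 0.08 (edgeR adjusted p = 0.306). Its total RNA moved apart over the same hours, as given above. With all 14 libraries the difference on library totals was 0.35 (edgeR adjusted p = 0.0572).

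**Figure D5:**
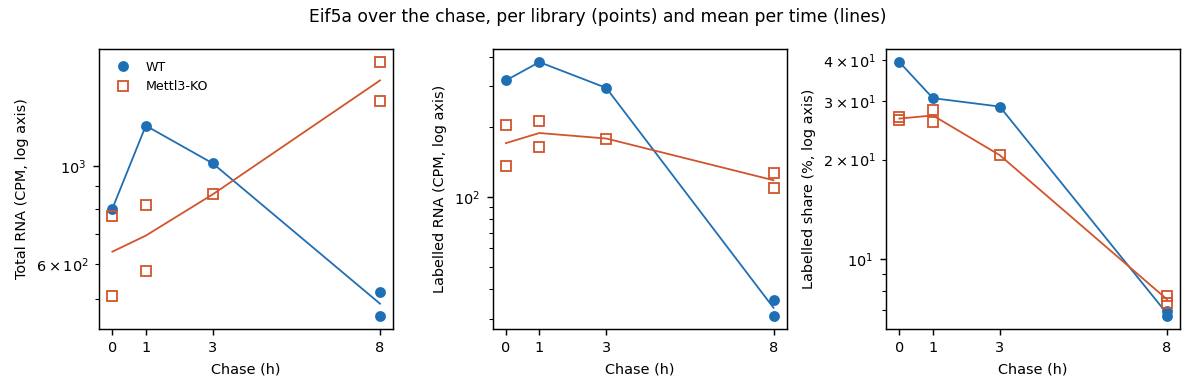
Eif5a in each deep library against hours of chase as total RNA (CPM), labelled RNA on the same CPM scale and labelled share in percent, all on log axes; lines join the mean of each time. Total and labelled RNA end lower in WT than in Mettl3-KO at 8 h, while the labelled shares at 8 h lie between 6.73% and 7.74%.

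Eif1ax kept more label in Mettl3-KO by both measures. Its share fell from 54.3% to 3.72% and 5.86% in WT, and from 33.6% and 42.8% to 10.7% and 9.39% in Mettl3-KO. The 8 h shares did not overlap, half-lives were 2.08 h and 5.00 h, and the difference was 0.28 (SE 0.08, edgeR adjusted p = 0.0262), or 0.20 on its own total (edgeR adjusted p = 0.0352). Its total RNA was also higher in Mettl3-KO. The call was lost without, for example, WT 8 h replicate 1 (0.23, edgeR adjusted p = 0.148) and with all 14 libraries (0.27, edgeR adjusted p = 0.139).

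The remaining 3 were 2 eEF1A lysine methyltransferases and Eif1ad. Eef1akmt1 fell from 41.8% to 2.51% in WT 8 h replicate 1 and to 0 of 348 counts in WT 8 h replicate 2. Taking 3 counts as the limit for a count of 0, that allows a share of up to 0.862%. In Mettl3-KO it went from 34.8% and 33.9% to 7.88% (59 of 749; exact 95% interval 6.05% to 10.04%) and 6.02% (127 of 2108). The difference was 0.44 (SE 0.12, edgeR adjusted p = 0.0185), and 0.32 without WT 8 h replicate 2 (edgeR adjusted p = 0.121). Eef1akmt2 rests on few counts: 0 of 87 in WT 8 h replicate 1, which allows up to 3.45% by the same limit. It had no counts at all in WT 8 h replicate 2, and 18 of 137 and 36 of 269 in Mettl3-KO at 8 h. Its difference of 0.71 (SE 0.22, edgeR adjusted p = 0.0385) lost its call without WT 8 h replicate 1 (0.56, edgeR adjusted p = 0.176). Eif1ad, at 0.30 (SE 0.09, edgeR adjusted p = 0.0434), had 8 h shares of 3.23% and 1.70% in WT and 3.44% and 4.19% in Mettl3-KO, and on its own total the difference was 0.16 (edgeR adjusted p = 0.196). Its call was lost in several single-library omissions, for example without WT 8 h replicate 2 (0.24, edgeR adjusted p = 0.189). With own totals as the scale, Eef1akmt4, Eif3b and Eif4g1 passed as slower in addition to Eef1akmt1 and Eif1ax; Eif4g1, for one, differed by 0.19 (edgeR adjusted p = 0.0213). Eef1a1 differed by 0.07 on the library scale and by 0.30 without WT 8 h replicate 1. That omission leaves WT 8 h replicate 2 as the only WT library at 8 h. Total RNA of Eef1a1 was 438 CPM there, against 3432 in WT 8 h replicate 1. On its own total the difference was -0.04 (edgeR adjusted p = 0.560).

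None of Eef1b2, Eef2, Eif3f, Eif3i and Eef1g was called different between genotypes on library totals, although Eif3f passed as faster with TMM on the conversion counts, as above. Differences on library totals were -0.07 (SE 0.07) for Eef1b2, -0.03 (SE 0.07) for Eef2, -0.12 (SE 0.07) for Eif3f, 0.10 (SE 0.07) for Eif3i and 0.01 (SE 0.07) for Eef1g. Over the 9 TOP members the median difference was -0.03, with 4 above 0, against 0.12 for the other members, with 40 of 49 above 0. The authors' deposited table of half-lives, whose header gives no unit, holds 29 members. Of them 28 are longer in Mettl3-KO there (96.6%, against 83.4% of all 6985 genes), and medians in the authors' deposited table are 1.87 and 3.53 for members and 1.69 and 2.52 for all genes. The single member shorter in Mettl3-KO in the authors' deposited table is Eef2k, at 2.49 and 2.37. Eef1a1, Eef2 and Eif5a are not among the 29, and of the TOP list only Eif4b is. The 96.6% thus leaves out nearly all TOP members. Some directions differ from the fits here. For Eif2d the authors' table has 2.78 and 3.24, where the fits gave 3.15 h and 2.35 h. For Eif3d it has 2.20 and 4.18, where the fits gave 2.34 h and 2.11 h. Its Mettl3-KO values for the 29 reach 90.7 (Eif2b3).

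Partners and regulators of the factors were taken as a list of 42, of which 41 were measured. In total RNA 6 were higher and 8 lower in Mettl3-KO (median log2 change 0.01), where 21.8% and 19.2% of all genes were called. Among the genes for making diphthamide, the modified histidine of eEF2, Dph3 rose by 1.55 (SE 0.19) and Dph5 by 1.29 (SE 0.15). Dph1 rose by 0.94 (SE 0.17) and Dph2 by 0.68. With all 14 libraries Dph3, Dph5, Dph1 and Dph2 were still called. Dph6 fell by 0.42 with overlapping groups (edgeR adjusted p = 0.0487), but with all 14 libraries it stood at 0.05 and was not called. Dph7 (0.61, SE 0.44) did not pass. Eif4ebp3, a 4E-binding protein, was lower, with 87.0 CPM ± 23.3 (SD, n = 5) in WT and 37.7 ± 4.20 (SD, n = 7) in Mettl3-KO, a fall of 1.14 on the log2 scale (SE 0.17). In loss of label 3 of 41 were slower and none faster (median 0.10), against 5.06% and 0.300% of all genes. These were Dph3 (0.35), Eefsec (0.52), the elongation factor for selenocysteine, and Eif4ebp1 (0.46), the 4E-binding protein 1, with a half-life of 1.43 h (WT) and 4.12 h (Mettl3-KO). Eefsec was near 0 in WT at 8 h, with a labelled share of 0.218% of 458 counts and 0% of 226. With all 14 libraries Eif4ebp1 was still called, while Dph3 (0.34, edgeR adjusted p = 0.0610) and Eefsec (0.52, edgeR adjusted p = 0.0643) were not. Pdcd4, an inhibitor of eIF4A, was the partner whose total RNA differed over the chase (edgeR adjusted p = 0.0160). With all 14 libraries Pdcd4 was not called (edgeR adjusted p = 0.887).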

How the data were processed

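Labelled and total RNA were measured by SLAM-seq, in which iodoacetamide (10 mM, per the labels' protocols) makes S4U read as C, in 3′ end libraries from 100 ng of RNA. The authors deposited whole-number counts per gene symbol, as total counts and as T>C conversion counts. The submitters' processing notes name the build mm10 and the tools edgeR 3.32.1, Subread 1.5.0 with featureCounts, and Trim Galore 0.4.0. Not given in the sources used here are the aligner, the conversion caller, and if a conversion is a read or a base. For 152 genes, none of them a member, a library holds more conversions than total counts. The authors' deposited half-lives carry no unit, and a deposited table of log-scale values was not used. No library without S4U was analysed here, so conversions that arise without label were not measured.

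Tests used edgeR 4.0.16 (R 4.3.3): quasi-likelihood F tests with robust dispersion, TMM scaling and Benjamini-Hochberg adjustment over all genes tested, threshold 0.05. Total RNA was modelled on genotype with a factor for chase time, and chase slopes on genotype, hours and their interaction. Conversion counts were scaled by TMM-scaled total counts for loss, and by the gene's own total (0.5 where it is 0) for the share. Standard errors are the effect over the root of F. Shares have exact Clopper-Pearson intervals and a floor of 3 counts, which cover counting error only. The fits were tried on simulated counts. The 12 libraries above 1000000 counts were used because the other 2 stand apart in depth and labelled share. Alternatives were all 14 libraries, each library left out, a replicate block, DESeq2 1.42.0 and its size factors, other count filters, other scales and the early times alone. The 1 entry without a name (0.00707% to 0.0312% of counts) was left out.

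Members and lists were chosen with earlier results of these data known. Named are the 8 members of smallest p per direction and comparison, the 3 longest and shortest half-lives per genotype, up to 4 partners per comparison, and 9 fixed members (Eif2s1, Eif4e, Eif4g1, Eif4a1, Eif4a2, Eif4b, Eef1a1, Eef2, Eif5a). Others were named with their complex or list after their values were seen. RefSeq (GRCm38.p6, which mm10 stands for) gave positions and sequences.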

Additional observations from a re-analysis of the deposited data

Results flagged for a closer look

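The genotypes differed in slope for 6 results, each by the interaction of genotype and hours in edgeR. Total RNA of Eif5a differed by 0.31 log2 per hour. Loss of label differed by 0.39 for Eif5a, 0.44 for Eef1akmt1, 0.28 for Eif1ax, 0.71 for Eef1akmt2 and 0.30 for Eif1ad, all slower in Mettl3-KO. The fits used 5 WT and 7 Mettl3-KO libraries, and each of the 6 calls was lost in some of the alternative fits. Eef1akmt2 had no counts at all in WT 8 h replicate 2. Against its own total counts, the loss difference of Eif5a was 0.08 (edgeR adjusted p = 0.306).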

How the results depend on the processing

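The single deep WT libraries at 0, 1 and 3 h, the depth of the other 2 libraries and the choice of scale limit these results. Over these alternatives, 160 counts of members were equal to the main count or within a ratio of 1.5 of it, and 20 were not. With all 14 libraries 6 members were higher in total RNA, 0 had a higher chase slope and 2 lost label more slowly. DESeq2 gave 2 higher and 1 lower chase slopes, and the fit with no count filter 1 lower. TMM on the conversion counts gave 2 slower and 2 faster members, and the 0 h and 1 h libraries alone 32 lower shares; the cause was not tested. Leaving out each library in turn gave 12 to 17 members higher and 6 to 9 lower in total RNA, 0 to 2 higher chase slopes, 2 to 6 slower, 51 to 56 with loss in WT and 47 to 56 in Mettl3-KO.

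Deviations of same-numbered libraries correlated between -0.08 and 0.24, highest between Mettl3-KO 1 h and WT 8 h. Groups with a single deep library gave no such value, so whether replicate numbers pair the libraries is not settled. With the replicate number as a block, 16 members were higher and 8 lower, 1 had a higher chase slope, 4 lost label more slowly, and 55 and 54 lost label in WT and Mettl3-KO. Eif1ad lost its call (edgeR adjusted p = 0.0585) and Eif4a1 passed as higher in total RNA (edgeR adjusted p = 0.0277).

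For single named members, 920 values kept their direction where called and their side of the threshold, 56 lost the call and 20 gained it. Among those gained, Eif4a2 passed in total RNA by DESeq2 (adjusted p = 0.0349) and without WT 1 h replicate 1 (-1.40, edgeR adjusted p = 0.0475), and in its chase slope by DESeq2 (-0.30, adjusted p = 0.0126).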

Other observations

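Mettl3-KO 3 h replicate 2, left out for its depth, held 2118 counts of Eif5b and 994 of Eif4g1 among 602297, where Mettl3-KO 3 h replicate 1 held 9847 and 10338 among 22354500. WT 1 h replicate 2 held 46 counts of Eef1a1 in 49154.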
